A study of Mus musculus with 2 samples.

Results

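The genes described here are Ifnb1, which encodes interferon beta, and 9 chains of receptors for interferons and interleukins, Ifnar1, Ifnar2, Ifngr1, Ifngr2, Il10ra, Il10rb, Il4ra, Il6ra and Il6st. They were chosen by name as 1 ligand and the chains through which macrophages sense interferons, interleukin-10, interleukin-4 and interleukin-6, and they are 10 of the 55536 genes in the deposited tables.

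Interferon beta is a secreted type I interferon that macrophages make after the lipopolysaccharide receptor TLR4 is engaged, through the transcription factors IRF3 and NF-kB. It binds a receptor of the chains IFNAR1 and IFNAR2, and the kinases TYK2 and JAK1 bound to these chains phosphorylate STAT proteins. The other receptors work on the same plan: a chain pair on the surface brings Janus kinases together, and the STAT proteins they phosphorylate enter the nucleus, mainly STAT3 for interleukin-10 and interleukin-6, and STAT6 for interleukin-4.

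The data were 2 libraries of nuclear RNA, depleted of ribosomal RNA, from bone-marrow-derived macrophages, which are primary cells grown from the marrow of C57BL/6J mice. Both libraries came from 1 condition: the cells had 100 ng/ml of Lipid A, the TLR4-binding part of lipopolysaccharide, for 12 h, then 12 h after washing, then 100 ng/ml of Lipid A again for 10 min. Replicate 1 was prepared from 1 µg and replicate 2 from 500 ng of nucleic acid, both labelled with the same donor, and neither sex nor age was recorded. The labels call them biological replicates but do not say that they came from separate cultures or animals, so the spread between them may be technical. Untreated cells, other times and the cytoplasm were not used here, so no value below is a response to Lipid A.

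The gene tables held 24444219 estimated counts on genes in replicate 1 and 18051097 in replicate 2. The 10 genes took 0.163% and 0.145% of these counts. All 10 macrophage markers examined were detected, led by Lyz2 (lysozyme), Ctss (cathepsin S) and Mpeg1 (perforin-2), with a median of 164 TPM. TPM is a level per length of transcript, scaled to a fixed total over all entries of a table. None of 20 markers of other cells was detected, and their TPM summed to 0.06 and 0.08 for 6 markers of T, NK and B cells, to 0.29 and 0.36 for 5 of neutrophils and mast cells, to 0.90 and 0.88 for 4 of dendritic cells, and to 0.28 and 0.11 for 5 of stroma and endothelium.

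All 9 receptor chains were detected, meaning a level of at least 1 TPM and at least 10 estimated counts in both libraries, while Ifnb1 was not. Among all 22028 annotated protein-coding genes, 42.9% passed the same limits. The chains' median level was 39.6 TPM, against 0.35 TPM over all protein-coding genes and 7.99 TPM over those detected. In bulk RNA, fewer cells that express a gene and less RNA per cell cannot be told apart. Il10rb had the highest mean level of the 10 genes, 66.2 TPM, and stood at rank 421 among protein-coding genes. The lowest chain, Il6ra, had 11.1 TPM and rank 3660.

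**Figure D1:**
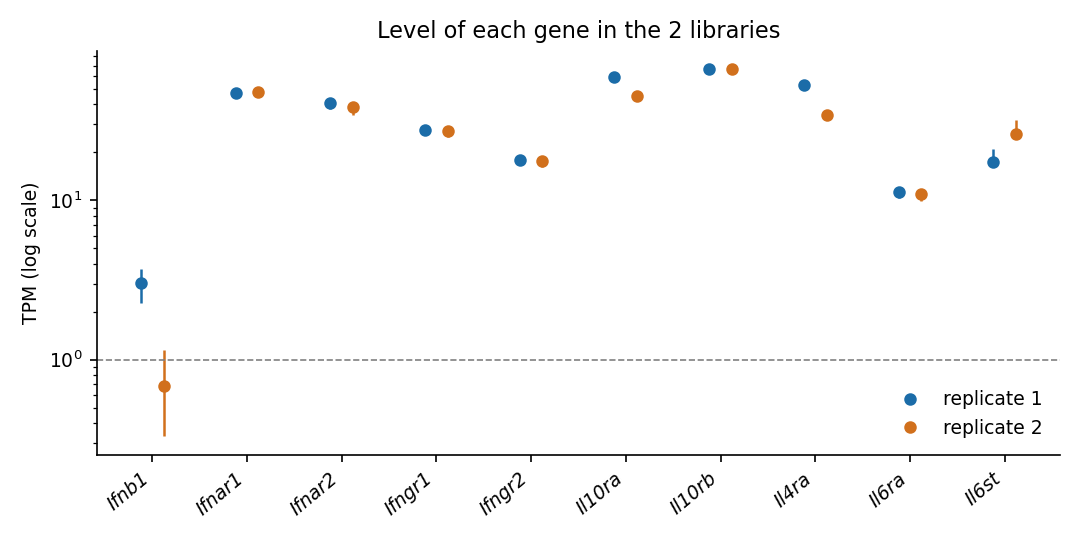
TPM of each of the 10 genes in replicate 1 and replicate 2, on a log axis, with vertical bars for the deposited lower and upper bounds, which need not be centred on the point, and a dashed line at 1 TPM. The receptor chains lie between 11.0 and 66.2 TPM in both libraries, and Ifnb1 lies at 3.02 TPM in replicate 1 and 0.68 TPM in replicate 2.

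Ifnb1 is a gene without introns on chromosome 4 (chr4:88522025-88522774 on the minus strand, mm10, ENSMUSG00000048806.4), with a single annotated transcript of 750 bases that codes for 182 residues. Its level was 3.02 TPM in replicate 1, from 64 counts with deposited bounds of 2.27 and 3.70 TPM, and 0.68 TPM in replicate 2, from 10 counts with bounds of 0.331 and 1.16 TPM. Replicate 1 was thus above the 1 TPM limit and replicate 2 was not, and the bounds did not overlap. After normalisation of the counts by TMM, a method that scales libraries on the bulk of their genes, the log2 ratio of replicate 1 over replicate 2 was 2.34, with a 95% counting interval from 1.43 to 3.53. The interval covers counting error only, as do the others given here. A second deposited quantification of the same libraries gave 1.29 TPM in replicate 1 and 0.419 TPM in replicate 2, and a log2 ratio of 2.29. A level this close to the detection limit rests on few reads.

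The other interferon genes were at or near a count of 0. Of 20 genes for type I, II and III interferons, none was detected, and 18 had an estimated count of 0 in both libraries. Among these 18 were every interferon alpha gene listed, Ifng and both interferon lambda genes, Ifnl2 and Ifnl3. Of all 22028 protein-coding genes, 42.9% were detected and 7279 had a count of 0 in both libraries. A count of 0 allows up to 3 counts per library, a share of 1.23e-05% in replicate 1 and of 1.66e-05% in replicate 2. Besides Ifnb1, only Ifnk (interferon kappa) had counts, 8 in replicate 1 and 6 in replicate 2. Reads of the interferon alpha genes could be divided among copies, so the single members of that family are uncertain. In the second quantification Ifna16 had 0.428 TPM in replicate 1 and 0.646 TPM in replicate 2.

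The Ifnb1 promoter is a textbook enhancer with sites for IRF factors and NF-kB, and the stretch that holds them is shown because Ifnb1 is the inducible gene of the set. It is the RefSeq sequence for GRCm38.p6, the assembly also called mm10, at chr4:88522865-88522954 on the minus strand, positions −160 to −71 counted from the start given in the table. Capitals mark exact matches to the NF-kB motif GGAAATTCC, at positions −115 to −107, and to the TATA box TATAAA, at positions −82 to −77:
Ifnb1 promoter: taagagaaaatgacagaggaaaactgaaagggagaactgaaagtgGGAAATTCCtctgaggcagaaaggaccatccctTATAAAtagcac
The start in the table lies farther downstream of this TATA box than transcription usually begins, so the positions are those of the table and may not count from the start used in cells. Motifs were searched on both strands of the 300-base windows that run from 250 bases before to 50 bases after each start. GGAAATTCC occurred in 0.317% of 32851 promoters and TATAAA in 13.6%. A further TATAAA began at position −210, and neither of the other motifs searched, the paired IRF letters GAAANNGAA (8.56% of promoters) and the STAT letters TTCNNNGAA (8.30%), occurred in its window. No 2 of these matches overlapped. Only exact strings were searched, so the lack of a GAAANNGAA match does not show that IRF sites are absent.

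Promoter windows were found for 7 of the receptor chains and not for Il10ra and Il10rb. Ifnb1 had 3 CpG dinucleotides and 42.7% G and C in its 300 bases. The 7 chains had from 14 (Ifngr1) to 33 (Il6st) CpG dinucleotides and from 57% (Ifnar2) to 74.3% (Ifngr2) G and C. The medians over all promoters were 7 CpG dinucleotides and 52.7% G and C, so Ifnb1 was below and the 7 chains above both. None of the 7 chains held GGAAATTCC, TATAAA or GAAANNGAA in its window, and Ifnar1 and Ifnar2 each held 1 match to TTCNNNGAA. A match is a string of letters in the reference and shows no binding.

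Both chains of the type I interferon receptor stood high among detected protein-coding genes. Ifnar1 (chr16:91485238-91507441, plus strand, ENSMUSG00000022967.13), the chain that holds TYK2, had 47.0 TPM in replicate 1 and 47.9 TPM in replicate 2, above 93.0% of detected protein-coding genes. Ifnar2 (chr16:91372783-91405589, plus strand, ENSMUSG00000022971.18), the high-affinity binding chain that holds JAK1, had 40.8 and 38.3 TPM, above 91.1%. Ifnar1 was above Ifnar2 in both libraries. The log2 ratio of their levels was 0.20 in replicate 1 and 0.32 in replicate 2 (0.26 ± 0.08, SD, n = 2). In the second quantification it was 0.05 ± 0.11, within the spread of its libraries.

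Interferon gamma receptor transcripts were lower. Ifngr1 (chr10:19591949-19610229, plus strand, ENSMUSG00000020009.13), the ligand-binding chain, had 27.7 TPM in replicate 1 and 27.2 TPM in replicate 2. Ifngr2 (chr16:91547072-91565623, plus strand, ENSMUSG00000022965.8), the signalling chain that holds JAK2, had 18 TPM in replicate 1 and 17.6 TPM in replicate 2. The log2 ratio of Ifngr1 over Ifngr2 was 0.62 and 0.63 (0.63 ± 0.006, SD, n = 2). This order did not hold in the second quantification, where the ratio was −0.08 ± 0.005. There Ifngr1 had 13.8 TPM in replicate 1 and 18.9 TPM in replicate 2, and Ifngr2 had 14.6 and 20.1 TPM.

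Both chains of the interleukin-10 receptor stood high. Il10rb (chr16:91406164-91425834, plus strand, ENSMUSG00000022969.13), a chain that receptors for interleukin-22 and interferon lambda also use, had 66.1 TPM in replicate 1 and 66.2 TPM in replicate 2. Il10ra (chr9:45253837-45269149, minus strand, ENSMUSG00000032089.16), the chain specific to interleukin-10, had 59.2 and 44.9 TPM. Il10rb was above Il10ra in both libraries, and also in both under the second quantification. The log2 ratio of Il10ra over Il10rb was −0.16 and −0.56 (−0.36 ± 0.28, SD, n = 2), and −0.77 ± 0.15 in the second quantification. The chains that pair with Il10rb for interferon lambda and interleukin-22, picked after their values were seen, were near a count of 0: Ifnlr1 had counts of 0 in replicate 1 and 1 in replicate 2, and Il22ra1 had 0 in both.

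Il4ra (chr7:125552120-125579474, plus strand, ENSMUSG00000030748.9), the chain that binds interleukin-4 and recruits STAT6, had 52.6 TPM in replicate 1 and 34.0 TPM in replicate 2. By TMM-normalised counts it differed more between the libraries than any other of the 9 receptor chains. In the second quantification it had nearly equal TPM, 21.4 in replicate 1 and 21.1 in replicate 2, whereas every other receptor chain was higher in replicate 2. The log2 ratio of TMM-normalised counts of Il4ra was still 0.83 there, against 0.85 in the first quantification. Its partner for the type I receptor, the common gamma chain gene Il2rg, had 86.3 and 74.3 TPM. Il13ra1, the partner in the type II receptor that also binds interleukin-13, had 0.85 and 1.61 TPM and was not detected in both. Il2rg was named as the highest detected gene of its list, and Il13ra1 was picked after its values were seen.

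For interleukin-6, the shared signal chain stood above the binding chain. Il6st (chr13:112464070-112510086, plus strand, ENSMUSG00000021756.12) encodes gp130, which also serves interleukin-11, interleukin-27, oncostatin M and leukaemia inhibitory factor. It had 17.4 TPM in replicate 1 and 26.1 TPM in replicate 2. Il6ra (chr3:89864059-89913196, minus strand, ENSMUSG00000027947.11) had 11.3 and 11.0 TPM. The log2 ratio of Il6ra over Il6st was −0.62 and −1.25 (−0.94 ± 0.44, SD, n = 2), and −1.25 ± 0.10 in the second quantification.

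Ordered by mean TPM the genes ran Il10rb, Il10ra, Ifnar1, Il4ra, Ifnar2, Ifngr1, Il6st, Ifngr2, Il6ra and Ifnb1. Of the 9 neighbouring pairs in this order, 4 had overlapping values over the libraries and so no settled order: Il10ra and Ifnar1, Ifnar1 and Il4ra, Il4ra and Ifnar2, and Il6st and Ifngr2. The other 5 pairs kept their order in both libraries. Ifngr1 and Il6st were the only one of these 5 whose order was turned in a library of the second quantification, replicate 2.

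Of the 10 genes 4 share a locus: Ifnar2, Il10rb, Ifnar1 and Ifngr2 lie in that order on the plus strand of chromosome 16 within 193 kb, chr16:91372783-91565623. Their mean levels were 39.6, 66.2, 47.4 and 17.8 TPM, so neighbours on the chromosome did not share a level in the first quantification. In the second the means were 20.7, 39.3, 21.7 and 17.3 TPM, and the neighbours Ifnar1 and Ifngr2 overlapped over the libraries. Gm21970, an annotated readthrough gene on the same strand, holds exons of both Ifnar2 and Il10rb, and had counts of 0 in replicate 1 and 3.85 in replicate 2. In the second quantification it had 0 and 17.6.

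The libraries were compared by the log2 ratio of TMM-normalised counts, replicate 1 over replicate 2, as a description of these 2 libraries, because an exact two-sided test over them cannot go below p = 0.5. Of the 10 genes, 9 had a ratio above 0, against 49.4% of the protein-coding genes that averaged at least 10 counts. The same 9 had a counting interval above 0 and Il6st had one below 0, against 27.4% and 26.2% of those genes. Only Ifnb1 was more than 2-fold apart, and 5.37% of all genes at that count were more than 2-fold higher in replicate 1, with 3.07% more than 2-fold lower. Among genes with a mean count from 10 to under 100, a window chosen after the values were seen, 10.7% were more than 2-fold higher in replicate 1, and 1.51% had a ratio at least that of Ifnb1. The difference in starting quantity and depth went with the replicate number, so their part cannot be told apart from other differences between the libraries.

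Among the receptor chains Il4ra had the largest ratio, 0.85 (95% counting interval 0.79 to 0.91), above that of 94.4% of protein-coding genes. Il10ra followed with 0.64 (0.58 to 0.69). Il6st had −0.37 (−0.42 to −0.31), with 16.4% of protein-coding genes below it. The other 6 chains lay between 0.20 (Ifnar1) and 0.40 (Ifngr2). All 9 chains were within the central 95% of protein-coding genes, −0.94 to 1.22, and Ifnb1 was outside it. On the TPM scale, where the median protein-coding gene had a ratio of −0.23, Ifnar1 and Il10rb turned to −0.03 and −0.002. Relative to that median the same 9 genes stayed above 0.

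**Figure D2:**
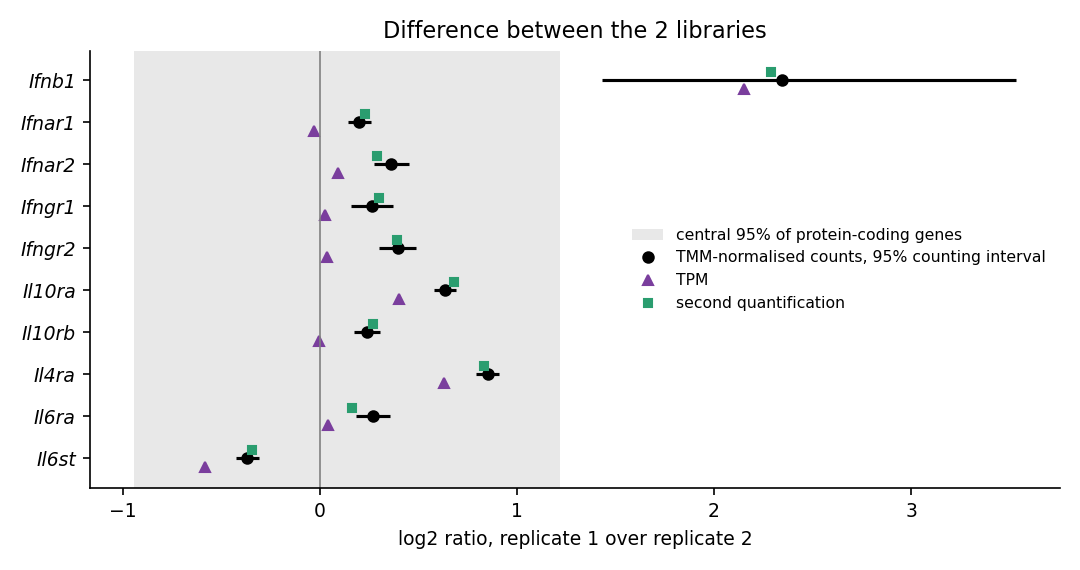
Log2 ratio of replicate 1 over replicate 2 for each gene from TMM-normalised counts (circles, with 95% counting intervals), from TPM (triangles) and from the second quantification (squares), over a grey band that holds the central 95% of protein-coding genes. Ifnb1 lies outside the band at 2.34, Il4ra is the highest chain at 0.85, and Il6st is the only gene below 0 by counts, at −0.37.

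The annotation gives these genes 48 transcripts, of which 20 are not of the coding type, and the transcript tables divide each gene's TPM among them. At least 10% of the gene's TPM in either library fell on 22 transcripts, and 12 transcripts had a count of 0 in both libraries. In nuclear RNA, reads from a precursor that still holds an intron and reads from a finished form that holds the same intron bases cannot be told apart in these tables. The shares below are the authors' percentages of gene TPM in replicate 1 and then replicate 2.

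**Figure D3:**
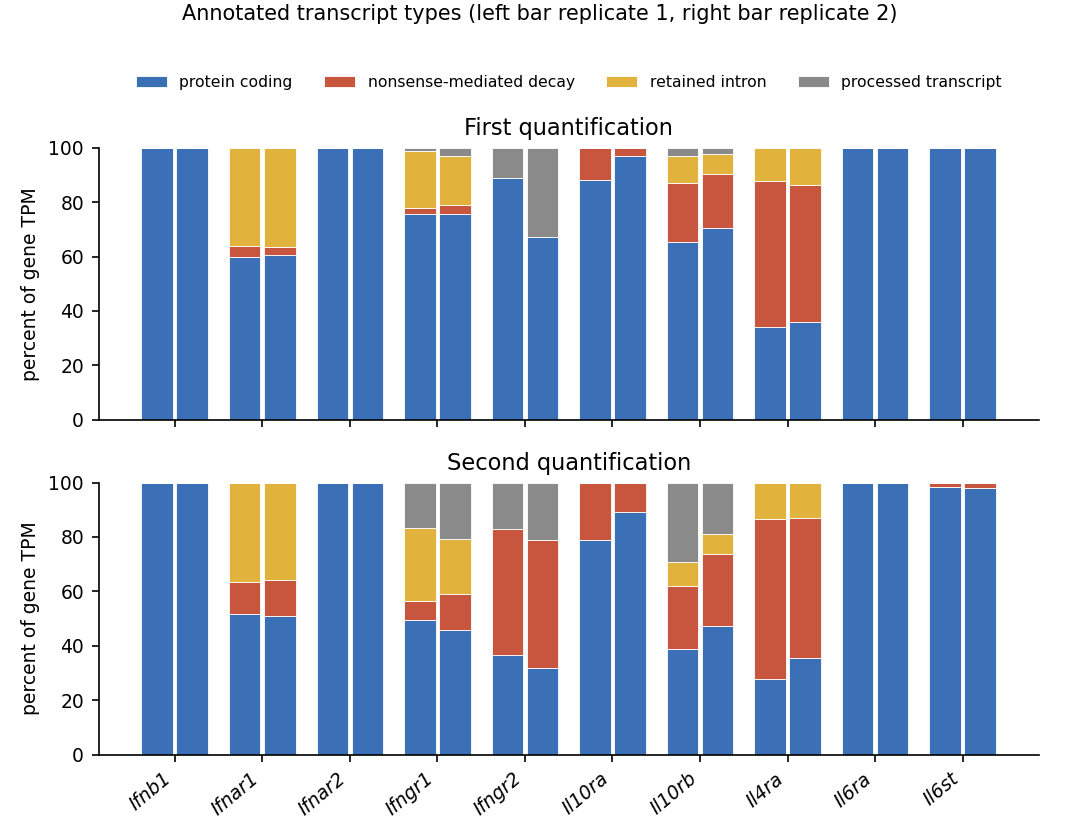
Percent of each gene's TPM on transcripts annotated as protein coding, nonsense-mediated decay, retained intron or processed transcript, with replicate 1 as the left and replicate 2 as the right bar, in the first (top) and second (bottom) quantification. Il4ra has over 50% on a decay transcript in both quantifications, whereas Ifngr2 has 0% in the first and 46.2% and 47.2% in the second.

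For Il4ra the transcript with the highest TPM in both libraries was not the full receptor. Il4ra-205, annotated for nonsense-mediated decay, a pathway that degrades mRNAs with an early stop, held 53.6% and 50.2%, and Il4ra-201, which codes for the full chain of 810 residues, held 32.9% and 36.1%. The counts were 3896 and 1645 for Il4ra-205, with SDs of 106 and 62.5 from the assignment of reads, and 3466 and 1715 for Il4ra-201. The second quantification gave Il4ra-205 58.8% and 51.4%, and Il4ra-201 17.8% and 22.2%. Among 2954 detected protein-coding genes with both a coding and a decay transcript, a decay transcript was the highest in both libraries in 4.87%. The median share on decay transcripts over those genes was 4.14% and 3.56%, and the share of Il4ra exceeded that of 97.4% of them (98.0% in the second quantification).

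Il4ra-205 holds an extra exon of 114 bases that Il4ra-201 lacks, chr7:125571934-125572047. Mouse cells are known to make a soluble interleukin-4 receptor from an mRNA with an extra exon. The ends differ too: the first exon has 42 bases in Il4ra-205 against 209 in Il4ra-201, and the last has 2444 against 3951. The share of Il4ra-205 therefore may not measure use of the extra exon alone. The sequences (GENCODE M21, mm10, plus strand) show where the forms part, after chr7:125571561-125571590. Lower case marks the last 30 shared bases and capitals the bases that follow in each form. For Il4ra-205 they run to its stop codon TGA, which ends a coding part of 230 residues:
Il4ra-201: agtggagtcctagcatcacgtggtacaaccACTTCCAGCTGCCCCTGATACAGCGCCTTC
Il4ra-205: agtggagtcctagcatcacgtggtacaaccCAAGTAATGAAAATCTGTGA
The antisense gene Gm44876 (chr7:125570776-125572117) covers this exon on the other strand. It had 8.29 counts in replicate 1 and 0 in replicate 2, and 76.9 and 8.97 in the second quantification. Whether the counting used strand is not given in the sources used here, so reads of the exon and of Gm44876 may not be separable. A retained-intron transcript, Il4ra-204, held a further 12.2% and 13.8%.

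Ifnar2 was divided almost evenly between a long and a short coding form. Ifnar2-201, the full chain of 513 residues, held 40.9% and 39.5%, and Ifnar2-203, which ends in an intron after 248 residues, held 38.3% and 40.2%. Mice are known to make a soluble IFNAR2 from such a short transcript. The 2 forms changed places between the libraries, and in the second quantification Ifnar2-203 was the higher in both, with 45.4% and 46.5% against 31.9% and 34.6% for Ifnar2-201. Ifnar2-203 runs 127 bases into the intron, straight on from the last shared bases at chr16:91393884-91393913 (plus strand). Capitals mark what follows those bases, to the stop codon TGA in Ifnar2-203:
Ifnar2-201: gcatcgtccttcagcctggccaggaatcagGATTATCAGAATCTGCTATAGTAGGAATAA
Ifnar2-203: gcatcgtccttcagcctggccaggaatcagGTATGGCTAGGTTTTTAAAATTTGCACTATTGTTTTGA
Ifnar2-205, a fragment of 2 exons with 155 intron bases, held 11.7% and 14.3%. Taking every form with at least 50 intron bases, the share was 50.04% and 54.5% of the Ifnar2 TPM.

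Il6st showed the same kind of ending at a smaller share. Il6st-203 and Il6st-201, which both code for the full gp130 of 917 residues and differ outside the coding part, held 64.0% and 67.9%, and 24.3% and 20.4%. Il6st-206 codes for 164 residues and holds, before and after its coding part, 2272 bases from introns of Il6st-203. It had 11.1% and 11.3% (9.65% and 12.8% in the second quantification). Its stop codon TAA comes 1 base after the last shared bases at chr13:112481515-112481544 (plus strand), again with capitals for what follows:
Il6st-203: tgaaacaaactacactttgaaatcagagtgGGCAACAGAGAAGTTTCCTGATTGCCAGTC
Il6st-206: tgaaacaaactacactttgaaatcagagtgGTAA
The second quantification spread this gene further, with 26.8% and 39.7% on Il6st-203, and 27.8% and 18.8% on Il6st-205, a fragment of 322 bases that had a count of 0 in the first. Il6st-205 was thus the highest form of replicate 1 there.

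Il10ra was mostly the full chain, and the libraries differed in the rest. Il10ra-201, with 575 residues, held 87.1% and 97.1%, and Il10ra-203, a decay transcript that skips the exon after the first and codes for 85 residues, held 12.0% and 2.93%. The counts of Il10ra-203 were 891 in replicate 1 and 115 in replicate 2, with SDs of 164 and 60.4 from the assignment of reads. The second quantification had the same direction, 21.2% and 10.7%. The forms part after chr9:45269006-45269035 (minus strand), and capitals mark the next exon of each:
Il10ra-201: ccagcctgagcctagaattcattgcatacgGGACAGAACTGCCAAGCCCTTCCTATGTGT
Il10ra-203: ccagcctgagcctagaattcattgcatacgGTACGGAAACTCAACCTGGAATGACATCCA
The pseudogene Gm20612 lies inside Il10ra on the other strand and had 58 counts in replicate 1 and 18 in replicate 2, few beside the 7665 and 4078 of Il10ra.

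**Figure D4:**
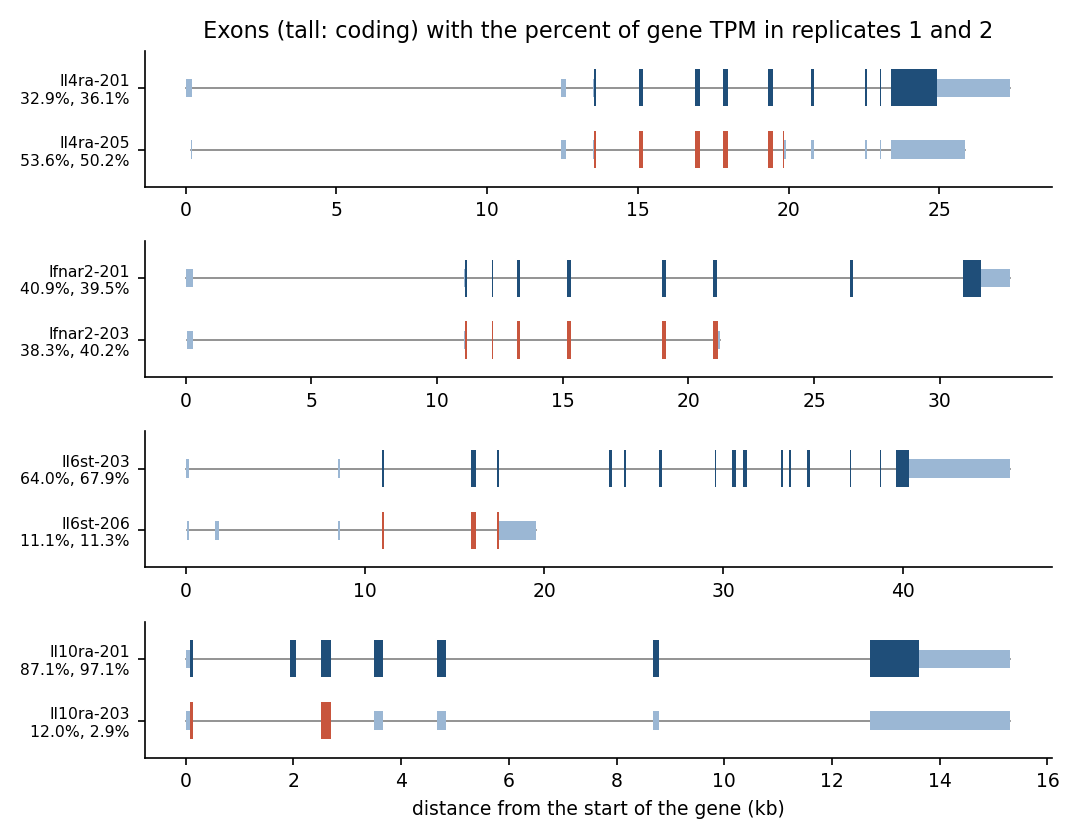
Exons of transcript pairs of Il4ra, Ifnar2, Il6st and Il10ra against the distance from the start of the gene in kb, with tall boxes for coding and low boxes for noncoding exon parts and the percent of gene TPM in replicates 1 and 2 beside each name. The lower transcript of each pair has the shorter coding part (red), and Il4ra-205 is the only one of these 4 with a higher share than its partner in both libraries.

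Ifnar1 had a retained-intron share that hardly moved between libraries or quantifications. Ifnar1-201, the full chain of 590 residues, held 58.3% and 60.3%, and Ifnar1-205, of whose 2234 bases 1970 are intron, held 36.3% and 36.4% (36.6% and 35.96% in the second quantification). Over 5972 detected protein-coding genes with such a transcript the median retained-intron share was 26.4% and 27.1%, and that of Ifnar1 exceeded 66.8% of them. In the second quantification the median was 31.5% and 31.8%, and the Ifnar1 share exceeded 58.4% of them. The total retained-intron shares of Ifngr1, Il4ra and Il10rb exceeded only 35.5%, 22.1% and 13.1% of these genes in the first quantification. Ifngr1-202, a retained-intron form, held 17.4% and 16.1%, and Ifngr1-201, the full chain of 477 residues, held 75.7% and 75.6%. In the second quantification the full Ifngr1 form was lower, at 49.6% and 45.6%.

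Il10rb had its full chain of 351 residues, Il10rb-201, at 65.5% and 70.6%, and at 38.8% and 47.1% in the second quantification. The second put 29.2% and 18.95% on Il10rb-202, a processed transcript that held 3.08% and 2.16% in the first. Il10rb-205, a decay transcript with 882 intron bases, held 21.6% and 19.8%, a share of decay transcripts above that of 82.7% of genes. Ifngr2 depended most on the quantification. In the first, Ifngr2-201, the full chain of 332 residues, held 88.9% and 67.1%, and Ifngr2-203, a processed transcript, held 11.1% and 32.95%. In the second, Ifngr2-202, a decay transcript of 534 bases with a count of 0 in the first, held 46.2% and 47.2%.

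Il6ra had 2 coding forms and no other. Il6ra-201 (3343 bases) held 46.2% and 44.9%, and Il6ra-202 (8639 bases, with a longer end) held 53.8% and 55.1%. The second quantification turned the order, with 60.4% and 56.3% on Il6ra-201. Their proteins of 460 and 459 residues differ by 3 coding bases at a splice acceptor, shown after the shared exon end at chr3:89885902-89885931 (minus strand) with the 3 added bases in capitals:
Il6ra-201: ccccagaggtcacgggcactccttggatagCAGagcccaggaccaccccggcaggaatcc
Il6ra-202: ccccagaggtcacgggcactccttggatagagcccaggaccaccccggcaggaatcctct
By the mean share over both libraries, 7 of the 10 genes had the same leading transcript in both quantifications, and the exceptions were Ifnar2, Ifngr2 and Il6ra. The same count over all genes was not made, so whether these genes are unusual in this was not tested.

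The listed mediators and inhibitors of signalling from these receptors were all detected, 16 of 16, with a median of 24.6 TPM. Stat2, which joins IRF9 in the factor that type I interferons activate, had 231 TPM in replicate 1 and 194 TPM in replicate 2. Usp18, which binds IFNAR2 and dampens its signal, had 80.7 and 50.2 TPM. Both are known interferon-induced genes. The log2 ratio of replicate 1 over replicate 2 was 0.47 for Stat2 and 0.90 for Usp18. The median ratio of the list was 0.49, against −0.006 over 11751 protein-coding genes. A median above 0 was not particular to this list: it was 0.41 for the macrophage markers and 0.32 for the 10 genes. The only related list with a median below 0 had 1 gene counted (−0.35). Adam17 and Adam10, proteases known to shed the interleukin-6 receptor from the cell surface, had 35.0 and 35.0 TPM, and 14.4 and 16.7 TPM.

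The ligands were mostly low. Of 16 listed ligands other than interferons, 4 were detected and 4 had a count of 0 in both libraries. Their median was 0.0825 TPM. The list also holds Il19, Il20 and Il24, whose products signal through other receptor chains and not through these receptors. None of them was detected, and Il20 and Il24 were among those at 0. Among all 22028 protein-coding genes 42.9% were detected, and 7279 had a count of 0 in both libraries. Ebi3, a subunit of interleukin-27, had 27.8 TPM in replicate 1 and 14.2 TPM in replicate 2. Il10 had 11.7 and 6.75 TPM, and Il27 had 4.67 and 3.06 TPM. Osm, oncostatin M, was the remaining one with 2.80 and 4.71 TPM. Picked after their values were seen, Il6 had 0.52 and 0.31 TPM, Il27ra, the receptor chain for interleukin-27, had counts of 0 and 6, and Osmr, the oncostatin M receptor chain that pairs with gp130, had 0 in both libraries.

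Other cytokine receptor chains gave a mixed picture. Beside 42.9% of all protein-coding genes, 14 of 30 further chains were detected, with a median of 0.908 TPM over the list. These are called other class I chains after the family of Il4ra, Il6ra and Il6st, although the list also holds Il2ra and Il15ra, which belong to a different fold, and Il15ra was among those detected. Csf3r, the receptor for G-CSF, had 67.3 TPM in replicate 1 and 70.1 TPM in replicate 2, and Csf2ra, a chain of the GM-CSF receptor, had 61.0 and 58.2 TPM. With Il2rg these were the 3 highest. Of 5 further class II chains, the family of the interferon and interleukin-10 receptors, only Il20rb was detected, at 1.45 and 2.03 TPM.

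**Figure D5:**
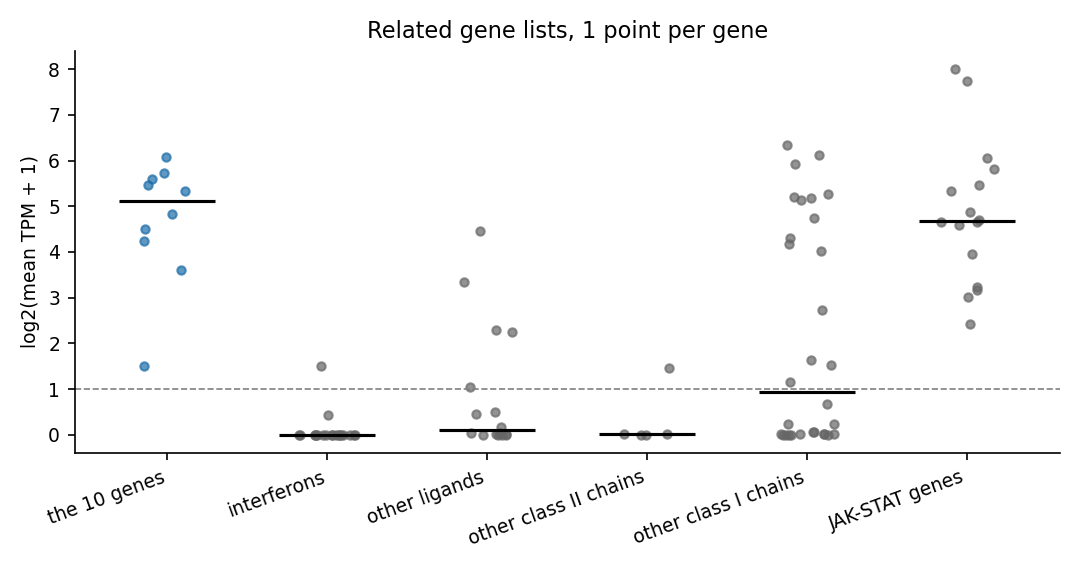
Mean TPM over both libraries, as log2(TPM + 1), for each gene (points) of the set and of related lists, with black lines at the medians and a dashed line at 1 TPM. The 10 genes have a median of 33.5 TPM and the JAK-STAT genes 24.6 TPM, while most interferons, the other ligands and the other class II chains lie near 0, and Ifnb1 is plotted in both of the first 2 columns.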

How the data were processed

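Both libraries formed 1 group, and no contrast between conditions exists. Per the file headers, the deposited gene and transcript tables (the first quantification) give expected counts, which need not be whole, TPM, the percent of gene TPM per transcript, and posterior SDs and bounds. A second deposited table per library gives estimated counts and TPM per transcript, here summed per gene. Per the deposited file descriptions, the build is mm10 with GENCODE M21. The sources used here do not give aligner, quantifiers, versions or strandedness. TPM was scaled by the authors over all entries, so any abundant entry lowers it for every other gene.

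Annotation came from GENCODE M21 and promoters from RefSeq (8 of 10 genes matched). Entries that name no gene held 1.06% and 0.245% of counts in replicates 1 and 2 and were left out. Expected counts were rounded, and TMM factors (edgeR 4.0.16, R 4.3.3) over genes averaging at least 10 counts were 0.945 and 1.06. Ratios had 0.5 added to each count, with exact (Clopper-Pearson) 95% binomial intervals (scipy 1.17.1). The ratio was tested on data simulated with counting error alone, so that test does not cover other differences between libraries. Alternatives were DESeq2 1.42.0 size factors, TPM ratios, the second quantification, other limits and single libraries.

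The genes and lists were chosen with earlier results of these data known. Named by rule were all 10 genes, transcripts with at least 10% of gene TPM in either library, and the 3 highest detected genes of each list. A gene named by this rule is not reported here.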

Additional observations from a re-analysis of the deposited data

How the results depend on the processing

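The limit on these values is that 2 libraries of 1 condition give a spread and no test, and that TPM depends on what else a table holds. No paired analysis was possible because both libraries form 1 group. The median level of the 10 genes was 33.5 TPM, and it was 19.0 TPM in the second quantification, 159 TPM after rescaling to protein-coding genes alone, and between 30.6 and 34.3 TPM in single libraries. The median log2 ratio between the libraries was 0.32, and 0.0400 on the TPM scale. In the second quantification the log2 ratio of Ifnar1 over Ifnar2 was 0.0524, that of Ifngr1 over Ifngr2 was reversed at −0.0837 and that of Il10ra over Il10rb was −0.77. The cause of these shifts was not tested. The second quantification also moved 8 of 10 gene levels and 9 of 10 leading transcript shares by more than the spread between libraries. Neither count was set beside one over all genes. With a minimum of 0.5 TPM, or with replicate 1 alone, 10 genes were detected in place of 9. All 10 ratios stayed within their 95% counting intervals under DESeq2 size factors, TMM over all genes with a count, and 5 added per count. On the TPM scale 9 of 10 fell outside them, and in the second quantification 1 of 10 did. Under every alternative tried Ifnb1 was the only one of the 10 past 2-fold. Ifnb1 is the value that depth limits most, with 64 and 10 counts.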

Other observations

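Genes of the related lists that stood more than 2-fold apart between the libraries were all higher in replicate 1, as Ifnb1 was. At a mean count of at least 10 they were 2 of 16 JAK-STAT genes, 2 of 7 ligands, 4 of 17 other class I chains and 1 of 10 macrophage markers, beside 5.37% of all genes. Of the undetected markers of other cells, 2 of 3 dendritic and 1 of 1 stromal or endothelial gene at that count were also more than 2-fold higher. They rest on few counts in replicates 1 and 2: Siglech 16 and 5, Xcr1 28 and 8, and Cdh5 21 and 7. Among all genes with a mean count from 10 to under 100, 10.7% were more than 2-fold higher. At a mean count of at least 10 no list had a gene more than 2-fold lower in replicate 1, beside 3.07% of all genes. With so low a share and so few listed genes, that lack may not set the lists apart. The genes named next were picked after their values were seen. Socs3 and Socs1, which encode inhibitors of receptor signalling that cytokines themselves induce, had 10.5 TPM and 6.39 TPM in replicate 1, and 3.74 TPM and 2.39 TPM in replicate 2, with log2 ratios of 1.74 and 1.65. Ebi3 and Il10 had ratios of 1.22 and 1.04. Il12rb1, a chain of the interleukin-12 receptor, had 1.45, and Fcgr1, the high-affinity IgG receptor, had 1.14. Starting quantity and depth differed in the same direction, and their part in these ratios was not tested.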
